A study of Mus musculus with 4 samples.

Results

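The muscle miRNAs miR-1, miR-133 and miR-206 and the liver miRNA miR-122 were followed in small RNA libraries of mouse brain cortex, a tissue in which none of them is a main product. The rule took miR-1, miR-133, miR-206 and miR-122 from the table of counts, with any letter after the number, and kept the arm of the hairpin that is usually the more abundant one, 3p for the muscle miRNAs and 5p for miR-122. It found 6 of the 942 mature miRNAs in the table: miR-1a-3p, miR-1b-3p, miR-133a-3p, miR-133b-3p, miR-206-3p and miR-122-5p. The rule used names and arms and no measured level, but the choice was made with earlier results of these data known.

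The cortex was taken from 4 mice of the strain B6C3 at 9 months of age. WT1 and WT2 were wild-type, and APP3 and APP4 were AD mice, which carry the APPswe and PS1ΔE9 transgenes (genotype APPswe/PS1deltaE9 in the labels), a chimeric mouse and human APP with the Swedish mutation and a human presenilin lacking an exon, both directed to neurons of the central nervous system. Group 1 held the siblings WT1 and APP4, group 2 the siblings WT2 and APP3, and each library came from 1 mouse. The study asked which miRNAs differ in the brain of this model of amyloid deposition, and the 6 miRNAs were compared between the genotypes, within each sibling pair and between mice of one genotype.

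A miRNA is cut from a hairpin, loaded on an Argonaute protein and guided to its target mRNAs mainly by its seed, bases 2 to 8 from its 5′ end. miR-1a and miR-133a are made together from shared primary transcripts in heart and skeletal muscle. miR-1 promotes differentiation of muscle cells, and miR-133 is known for its effect on their proliferation. miR-206 is a relative of miR-1a with the same seed, is largely found in skeletal muscle, and is paired in the genome with miR-133b. miR-122 is the dominant miRNA of hepatocytes, where it acts in cholesterol and lipid metabolism. In the brain, miR-133b is known for a debated role in midbrain dopamine neurons, and miR-206 is known as a regulator of the neurotrophin BDNF.

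The mature sequences of the 2 miRNAs of the pair on chromosome 1 are shown because they carry the seeds of both muscle families. They were taken from RefSeq on GRCm38.p6, whose table held 2 of the 6 miRNAs, and run 5′ to 3′ with the seed in capitals. Both are 22 bases long, on the plus strand, miR-206-3p at chr1:20679055-20679076 and miR-133b-3p at chr1:20682834-20682855.
miR-206-3p: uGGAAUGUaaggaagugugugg
miR-133b-3p: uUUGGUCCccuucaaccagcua
Among the 1679 mature mouse miRNAs of this table, miR-6349 and miR-6382 also had the seed of miR-206-3p, and neither has counts here. miR-133a-3p differs little from miR-133b-3p, so reads with a changed end or a mismatch could have been split between these in the counting. The sequences of miR-1a-3p and miR-1b-3p were not in this table and were not compared.

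In GENCODE vM21 on GRCm38, the hairpins Mir206 (20679010 to 20679082) and Mir133b (20682769 to 20682887) lie 3686 bases apart on chromosome 1, within exons of the lincRNA Gm28653. On chromosome 2, Mir1a-1 (180389048 to 180389124) and Mir133a-2 (180398379 to 180398482) lie 9254 bases apart and outside other annotated genes. A second pair lies on the minus strand of chromosome 18, Mir133a-1 (10782909 to 10782976) and Mir1a-2 (10785481 to 10785552), 2504 bases apart, in introns of the host transcript Mir133a-1hg and opposite to introns of Mib1. Mir1b (10785446 to 10785567) covers Mir1a-2 on the other strand. Mir122 lies on the same chromosome (65248861 to 65248926), within an exon of the lincRNA AC157910.3. miR-1a-3p and miR-133a-3p thus each have 2 hairpins, whose reads cannot be told apart.

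The libraries held between 19048747 and 26085776 miRNA reads, and counts were scaled to reads per 1000000 miRNA reads (RPM). At these depths 3 reads correspond to 0.115 RPM in WT1 and 0.157 RPM in APP4, the libraries with the most and the fewest reads. The 6 neuronal miRNAs listed as a check of the tissue, led by miR-9-5p, summed to between 74369 and 82116 RPM, and 3 glial ones, led by miR-338-3p, to between 1479 and 1847 RPM. Library APP4 stood apart for epithelial miRNAs, with 6080 RPM over 10 of them against 748 to 1212 RPM in the other libraries. For the muscle and liver miRNAs APP4 did not stand apart: it was between the other libraries for 5 of the 6 and lowest for miR-133b-3p.

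All 6 miRNAs had reads in all 4 libraries. miR-133a-3p was the only one above 10 RPM, at rank 204 to 220 of the 942 miRNAs, and it made up 84.2% of the reads of the 6 in WT1 and between 90.0% and 91.7% in the other libraries. The median of the miRNAs detected in a library was between 4.66 and 4.93 RPM, and miR-133a-3p and miR-1a-3p were above it in every library, so the description as traces holds less well for these than for the other 4. miR-1a-3p followed at rank 367 to 413, then miR-122-5p at 422 to 548 and miR-133b-3p at 506 to 541. miR-1b-3p and miR-206-3p were at 0.634 RPM or less, within a few times the level of 3 reads.

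**Figure D1:**
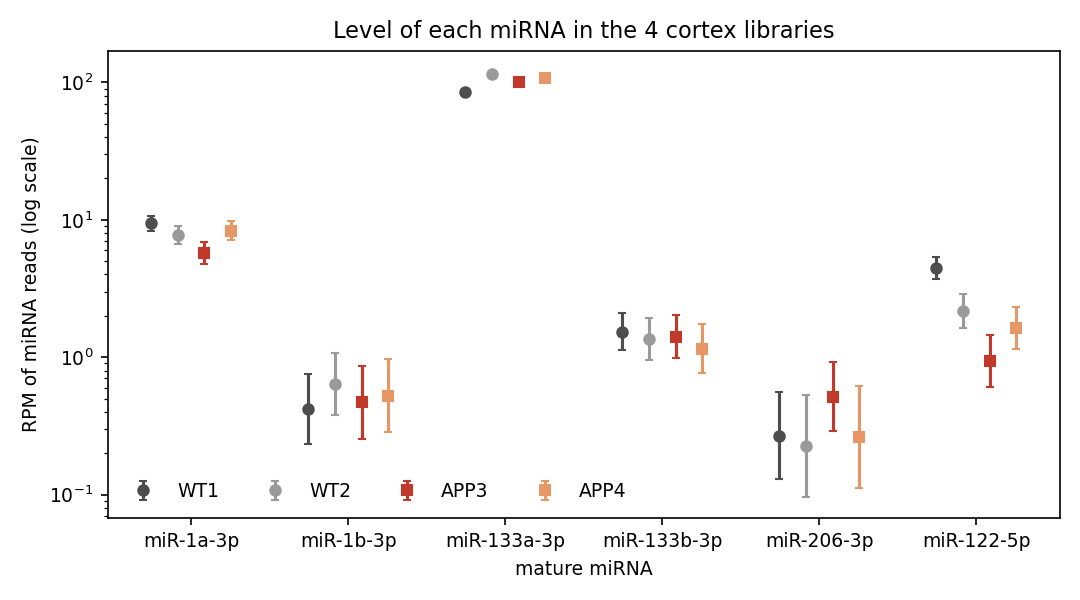
Level of each of the 6 miRNAs in RPM of miRNA reads, on a log scale, in the libraries WT1, WT2, APP3 and APP4, with bars for the 95% Wilson interval, which covers counting error only. miR-133a-3p sits between 85.5 and 114 RPM, while miR-122-5p spreads from 0.940 RPM in APP3 to 4.45 RPM in WT1.

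miR-133a-3p was counted 2231 times in WT1 and 2048 times in APP4, and 2528 in WT2 and 2144 in APP3. This is 85.5 RPM in WT1 (95% Wilson interval 82.0 to 89.1), 114 RPM in WT2 (110 to 119), 101 RPM in APP3 (96.6 to 105) and 108 RPM in APP4 (103 to 112). WT1 was the low library, and both AD mice lay between the WT mice, so the genotypes overlapped. In the order WT2, APP4, APP3, WT1, only the step from APP3 to WT1 passed Fisher's exact test (FDR 2.56e-07). The highest library had 1.34 times the level of the lowest, and 67.0% of the 587 miRNAs with at least 10 reads in every library had a wider range.

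miR-133b-3p was counted 40 times in WT1 and 22 times in APP4, and 30 in WT2 and 30 in APP3. In RPM it was 1.53 in WT1 (1.13 to 2.09) and 1.15 in APP4 (0.763 to 1.75), and 1.36 in WT2 (0.952 to 1.94) and 1.41 in APP3 (0.988 to 2.01). These intervals all overlap, and no neighbours in the order of level differed beyond counting error in Fisher's exact test (smallest FDR 0.770). Its 4 levels had a narrower range than those of 70.4% of the 587 miRNAs. Summed over miR-133a-3p and miR-133b-3p, the level was 87.1 RPM in WT1 and 109 in APP4, and 116 in WT2 and 102 in APP3, in the same order of libraries as for miR-133a-3p alone.

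miR-1a-3p was found in 246 reads of WT1 and 159 of APP4 in group 1, and 171 in WT2 of group 2, with the fewest in its sibling APP3. It was at 9.43 RPM in WT1 (8.32 to 10.7) and 8.35 in APP4 (7.15 to 9.75), against 7.75 in WT2 (6.67 to 9.00) and 5.74 in APP3 (4.80 to 6.85). APP3 was the low library here, and APP4 lay between the WT mice. Between mice of different pairs, APP3 had 0.610 times the level of WT1 (FDR 1.95e-05 in Fisher's exact test). With miRNA reads as totals, WT1, APP4 and WT2 did not pass as different from their neighbours, but with TMM library sizes WT1 and APP4 did (FDR 0.0406 in Fisher's exact test). WT2 and APP3 differed under both scalings (FDR 0.0349 and 0.0224 in Fisher's exact test). miR-1b-3p, on the strand opposite to Mir1a-2, had only 11, 14, 10 and 10 reads in WT1, WT2, APP3 and APP4, or 0.422, 0.634, 0.470 and 0.525 RPM. No difference between its libraries was detectable at this depth.

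miR-206-3p was counted 7 times in WT1 and 5 times in APP4, and 5 in WT2 and 11 in APP3. These reads correspond to 0.268 RPM in WT1 (0.130 to 0.554), 0.262 in APP4 (0.112 to 0.615), 0.226 in WT2 (0.0967 to 0.530) and 0.517 in APP3 (0.289 to 0.926). APP3 had the highest value, but its interval overlaps with those of the other libraries, and no step passed Fisher's exact test (smallest FDR 0.404). miR-208b-3p, a miRNA of a slow myosin gene, was also highest in APP3, with 25 reads against 11 in WT1, 16 in WT2 and 6 in APP4. Not all muscle miRNAs shared this. miR-499-5p was highest in WT2, at 2.54 RPM against 1.93 in APP3, and miR-1a-3p was lowest in APP3, at 5.74 RPM.

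miR-122-5p was counted 116 times in WT1 and 31 times in APP4, and 48 in WT2 and 20 in APP3. Its level was 4.45 RPM in WT1 (3.71 to 5.33) and 1.63 in APP4 (1.15 to 2.31), and 2.17 in WT2 (1.64 to 2.88) and 0.940 in APP3 (0.609 to 1.45). It was the only one of the 6 whose genotypes did not overlap, with both AD mice under both WT mice. Of the 623 miRNAs tested in edgeR, 8.99% had this order, and 168 had both AD mice above both WT mice. Genotypes that do not overlap were thus not rare. WT1 was high, and the step from WT1 to WT2, 2 mice of one genotype, was the only one in the order that passed Fisher's exact test (FDR 6.77e-05). WT2 and APP4 did not differ beyond counting error (FDR 0.394), nor did APP4 and APP3 (FDR 0.166). WT1 had 4.73 times the level of APP3, a range exceeded by 1.87% of the 587 miRNAs with at least 10 reads in every library. In bulk cortex, fewer cells of a type and less RNA per cell cannot be told apart.

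edgeR's quasi-likelihood test compared the genotypes, with the mouse as the replicate. It could test 5 of the 6 miRNAs, as miR-206-3p had too few reads. Of all 623 miRNAs tested, 0 (0%) had an adjusted p under 0.05, 36 had an unadjusted p under 0.05, and DESeq2 gave 0 and 28. miR-122-5p was at 3.31 ± 1.61 RPM in WT mice (SD, n = 2) and 1.28 ± 0.486 in AD mice (SD, n = 2). Its log2 fold change was -1.54 (SE 0.44), with an unadjusted p of 0.00982 in edgeR and an adjusted p = 0.768, so it did not pass. This value depended on single mice: it was -0.86 without WT1 (adjusted p = 0.812 in edgeR), and it was -1.92 without APP4, where it passed (adjusted p = 0.0175 in edgeR). In the fit without APP4 a single AD library is taken to vary like the WT libraries.

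For the muscle miRNAs no difference between the genotypes passed the test. miR-133a-3p was at 100.01 ± 20.5 RPM in WT mice (SD, n = 2) and 104 ± 4.74 in AD mice (SD, n = 2), with a log2 fold change in edgeR of -0.07 (SE 0.21). This sign turned without TMM scaling, to 0.059, and both values are under the SE. miR-1a-3p was at 8.59 ± 1.19 RPM in WT mice (SD, n = 2) and 7.04 ± 1.85 in AD mice (SD, n = 2), a log2 fold change of -0.44 (SE 0.24), which was -0.24 without WT1 and -0.67 without APP4. The values were -0.30 (SE 0.33) for miR-133b-3p, with -0.12 without APP4 and -0.53 without APP3, and -0.20 (SE 0.47) for miR-1b-3p. Adjusted p-values in edgeR were between 0.929 and 0.987 for these 4. The biological coefficient of variation between mice of one genotype was 24.0% over all miRNAs. On the log2 scale the TMM factors alone shift AD against WT by -0.11.

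Within the sibling pairs, Fisher's exact test compared the reads of 2 libraries, and a miRNA was called when it differed 1.5-fold or more with an FDR below 0.05. This compares libraries and not genotypes. Between APP4 and WT1, 1 of the 6 was called, miR-122-5p, where 11.6% of all 899 miRNAs with a read were called. Its log2 fold change was -1.43 (SE 0.29, FDR 3.78e-07 in Fisher's exact test). In group 2 miR-122-5p was again the 1 of 6 called between APP3 and WT2, with -1.19 (SE 0.38, FDR 0.00508 in Fisher's exact test), where 6.81% of all 896 miRNAs were called. The AD mouse thus had 0.370 times the miR-122-5p level of its WT sibling in group 1 and 0.439 times in group 2.

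Mice of one genotype differed as well. Between WT2 and WT1, miR-122-5p was the 1 of 6 called, with a log2 fold change of -1.02 (SE 0.25, FDR 6.77e-05 in Fisher's exact test) in WT2, where 10.1% of 879 miRNAs were called. Between APP4 and APP3, 0 of the 6 were called, where 8.05% of 907 miRNAs were. The log2 difference of miR-122-5p there was 0.78 (95% counting interval -0.02 to 1.58) in favour of APP4. The median size of the log2 difference of the 6 was 0.33 in group 1, 0.42 in group 2, 0.35 for WT2 against WT1 and 0.41 for APP4 against APP3. Over the 587 miRNAs with at least 10 reads in every library it was 0.30, 0.23, 0.28 and 0.25. These sets are not alike, since the 6 include miR-206-3p, which had as few as 5 reads and fails this filter. Between APP4 and APP3 its log2 difference was -0.91, with a 95% counting interval that crosses 0.

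For the muscle miRNAs, differences between siblings stayed under 1.5-fold or within counting error. miR-133a-3p was higher in APP4 than in WT1 by a log2 fold change of 0.33 (SE 0.04, FDR 4.61e-13 in Fisher's exact test) and lower in APP3 than in WT2, at -0.18 (SE 0.04, FDR 6.34e-05). With TMM library sizes the first of these was 0.15 (FDR 0.00306 in Fisher's exact test), as TMM shifts APP4 against WT1 by -0.18. Between the 2 WT mice it differed by 0.42 (SE 0.04), more than in either sibling pair. miR-1a-3p had -0.17 (SE 0.15, FDR 0.419 in Fisher's exact test) in group 1 and -0.43 (SE 0.17, FDR 0.0349) in group 2. With TMM library sizes these were -0.36 (FDR 0.0406) and -0.46 (FDR 0.0224), so whether group 1 passed depended on the scaling. Between the 2 AD mice it was 0.54 (SE 0.17, FDR 0.00617 in Fisher's exact test) in favour of APP4. miR-206-3p differed by 0.01 (log2) between APP4 and WT1 and by 1.12 between APP3 and WT2, with 95% counting intervals of -1.58 to 1.59 and -0.35 to 2.58, so that a 2-fold change either way lies within the interval of group 1.

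**Figure D2:**
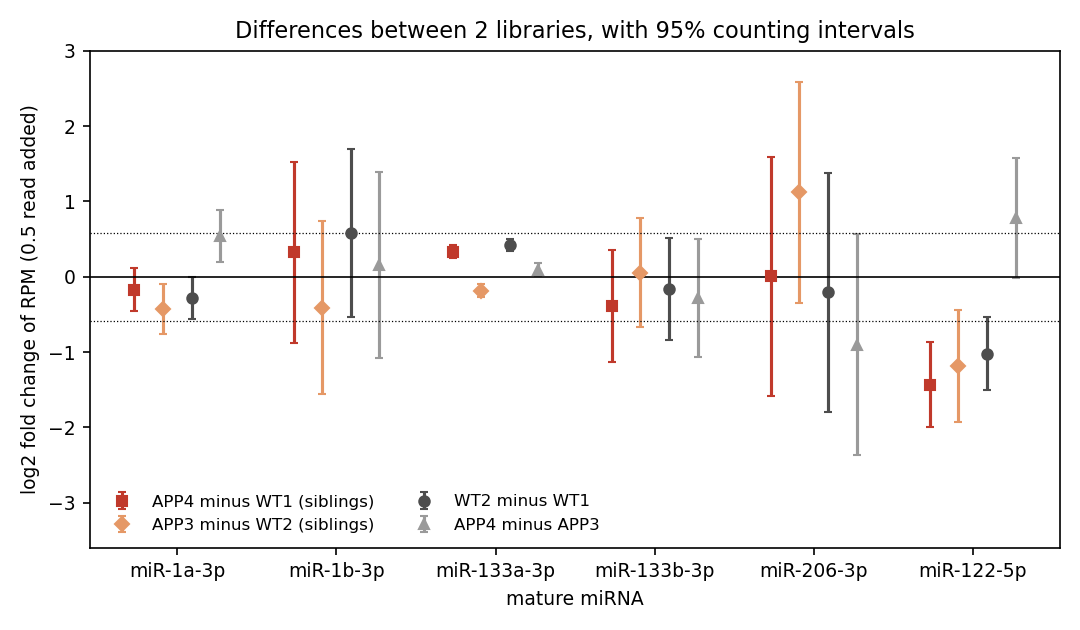
Log2 fold change of RPM between 2 libraries for each of the 6 miRNAs, with bars for 95% counting intervals and dotted lines at 1.5-fold, for both sibling pairs (APP4 minus WT1, APP3 minus WT2) and both pairs of one genotype (WT2 minus WT1, APP4 minus APP3). miR-122-5p lies past the lower line in both sibling pairs and also between the WT mice, at -1.43, -1.19 and -1.02, and the bars of miR-1b-3p and miR-206-3p cross 0 throughout.

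Ratios of reads within a library do not depend on the total used for scaling. For the 5 miRNAs with at least 10 reads in every library, 10 ratios were compared between all 6 pairs of libraries by Fisher's exact test, 60 tests in all, and 11 had an adjusted p under 0.05. WT1 was one of the libraries in 10 of the 11, so 1 was found among the other 3 libraries. The reads of miR-1a-3p over those of miR-133a-3p were 0.110 in WT1 and 0.0776 in APP4, and 0.0676 in WT2 and 0.0569 in APP3. WT1 differed from each other library in this ratio (adjusted p = 2.84e-05, 5.50e-08 and 0.00677 in Fisher's exact test), and none of the tests among the other 3 passed (smallest adjusted p = 0.0544, for APP4 against APP3). That test, with an unadjusted p = 0.0136 in Fisher's exact test, did pass where this ratio was tested alone. WT1 had the highest value of miR-1a-3p and the lowest of miR-133a-3p.

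Ratios to miR-122-5p made up 8 of the 11. The reads of miR-133a-3p over those of miR-122-5p were 19.2 in WT1 and 66.1 in APP4, and 52.7 in WT2 and 107 in APP3, a 5.57-fold range. WT2 and APP3, the siblings of group 2, differed in it (adjusted p = 0.0372 in Fisher's exact test), the 1 difference that did not involve WT1. The reads of miR-1a-3p over those of miR-122-5p were 2.12, 3.56, 6.10 and 5.13 in WT1, WT2, APP3 and APP4. The muscle and the liver miRNAs therefore did not keep one ratio over the libraries. The ratio of miR-133a-3p to miR-133b-3p was 55.8, 84.3, 71.5 and 93.1, and 0 of its 6 tests passed (smallest adjusted p = 0.175).

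**Figure D3:**
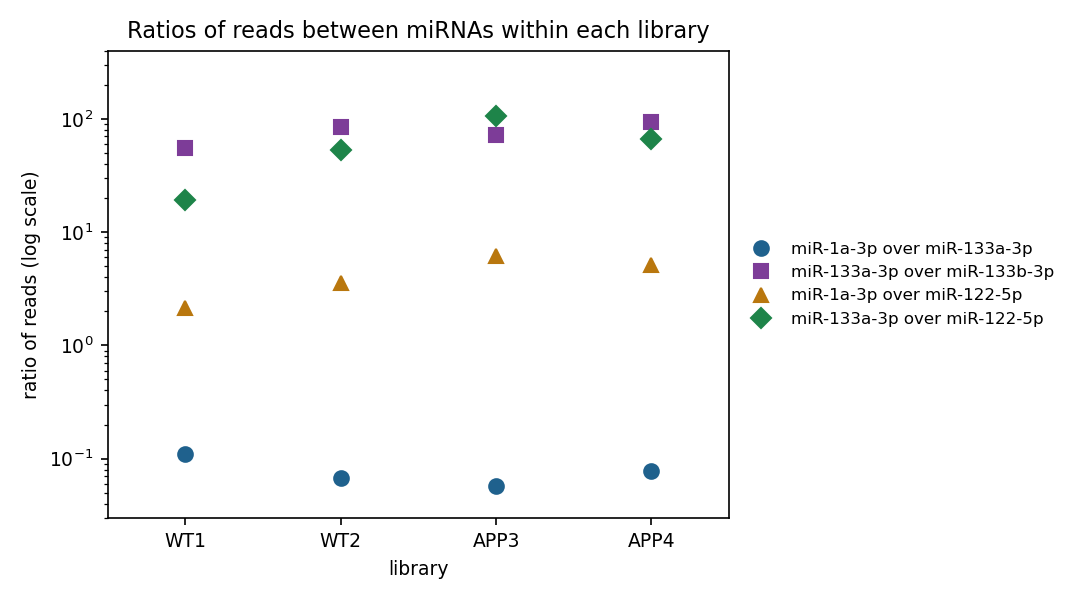
Ratios of reads between pairs of miRNAs within each library, on a log scale, one point per library. The ratio of miR-133a-3p to miR-122-5p spans 19.2 in WT1 to 107 in APP3, and that of miR-1a-3p to miR-133a-3p is highest in WT1, at 0.110.

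The other arms of the same hairpins had few reads. Over the 4 libraries, miR-133a-5p had 18 reads beside 8951 of miR-133a-3p, a share of 0.201% (95% Wilson interval 0.127 to 0.317). miR-122-3p had 6 beside 215 of miR-122-5p, a share of 2.71% (1.25 to 5.80), with 2, 3, 0 and 1 reads in WT1, WT2, APP3 and APP4. miR-1a-1-5p had 2 reads, miR-206-5p had 1 and miR-1b-5p had 5 in all, so that the arm taken by the rule was the more abundant one for the 5 miRNAs whose other arm was measured. The other arm of miR-133b-3p was not analysed here. These counts are too low to compare libraries.

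Other miRNAs of striated muscle were also scarce. miR-499-5p, from an intron of a slow myosin gene, had 47 reads in WT1 and 38 in APP4, and 56 in WT2 and 41 in APP3, or 1.80, 1.99, 2.54 and 1.93 RPM in the same order. miR-499-3p had 1 read in WT1 and 1 in APP3, and 0 in the other libraries. The 3 miRNAs of this list, with miR-208b-3p, summed to 2.26 RPM in WT1 and 2.31 in APP4, and 3.26 in WT2 and 3.15 in APP3. Their order differs from that of the 5 muscle miRNAs of the rule, which summed to 97.2, 124, 109 and 118 RPM in WT1, WT2, APP3 and APP4.

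miR-192-5p, miR-194-5p, miR-215-5p and miR-802, which are abundant in liver, gut or kidney, had a narrower spread as a sum than miR-122-5p. Summed over the 5 arms measured, they were at 1699 RPM in WT1 and 1451 in APP4, and 1610 in WT2 and 1556 in APP3, a 1.17-fold range, and 0 of 5 were called in either sibling pair or between mice of one genotype. Most of this sum was miR-192-5p, at 1627, 1519, 1462 and 1354 RPM in WT1, WT2, APP3 and APP4. miR-192-5p, miR-215-5p (7.86, 6.34, 7.10 and 5.56 RPM) and miR-802-3p were highest in WT1, as miR-122-5p was. miR-802-3p, at 0.767, 0.544, 0.423 and 0.472 RPM from 20, 12, 9 and 9 reads, had the same order of libraries as miR-122-5p, with both AD mice under both WT mice. For miR-192-5p and for the sum both AD mice were also under both WT mice, but with APP3 above APP4. Of the 623 miRNAs tested in edgeR, 8.99% had both AD mice under both WT mice. miR-194-5p, at 62.4, 82.9, 85.2 and 90.1 RPM, was lowest in WT1, and miR-802-5p, with 31, 35, 19 and 25 reads, was highest in WT2.

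Markers of blood and vessels were set beside these values, and their part in the results was not tested. The erythroid miR-451a was at 91.4 RPM in WT1 and 146 in APP4, and 199.9 in WT2 and 159 in APP3, lowest in WT1. So were miR-144-3p, miR-144-5p and miR-486-3p, while miR-486-5p was lowest in APP4, at 3053 RPM against 3900 RPM in WT1. The 5 erythroid arms, led by miR-486-5p, which muscle also makes, summed to between 3242 RPM in APP4 and 4658 RPM in WT2. The 4 arms of miR-143 and miR-145, of smooth muscle and vessel wall and led by miR-143-3p, summed to 24114 RPM in WT1 and 16823 in APP4, and 24555 in WT2 and 20930 in APP3. The endothelial miR-126 arms, led by miR-126-5p, summed to between 7322 and 9135 RPM. The 4 myeloid arms, led by miR-142-5p, summed to between 61.2 RPM in WT1 and 100.2 RPM in APP4. The 4 pancreatic miRNAs, led by miR-375-3p, summed to between 109 and 157 RPM. The epithelial list was led by miR-182-5p.

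**Figure D4:**
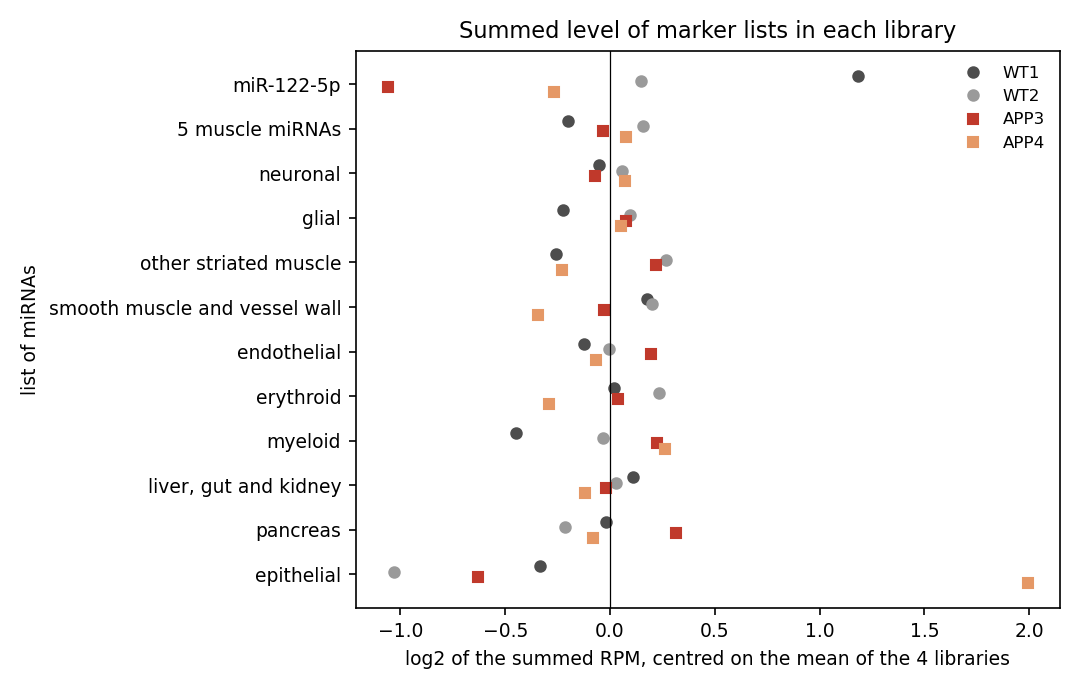
Summed RPM of each list of marker miRNAs in each library, as log2 values centred on the mean of the 4 libraries, with miR-122-5p and the 5 muscle miRNAs at the top. miR-122-5p is highest in WT1 and lowest in APP3, a spread that the list of liver, gut and kidney miRNAs does not have, and the epithelial list is highest in APP4, at 6080 RPM.

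Profiles were compared over the 4 libraries by the root mean square distance of log2 RPM centred on its mean, against 409 miRNAs with at least 100 reads in every library. With 4 libraries this is a description only. Nearest to miR-133a-3p were miR-484 (distance 0.05), miR-128-3p (0.05) and miR-500-3p (0.05). miR-1a-3p was nearest to miR-145a-5p of the vessel wall (0.07), which was at 164, 152, 112 and 150.1 RPM in WT1, WT2, APP3 and APP4. It was followed by miR-5129-3p (0.08) and miR-379-5p (0.12). The other vessel wall arms, miR-143-3p, miR-143-5p and miR-145a-3p, were lowest in APP4 and not in APP3. miR-133b-3p was nearest to miR-3068-5p, miR-215-5p and miR-1947-5p, and miR-1b-3p to miR-450a-5p, miR-337-3p and miR-128-3p. With 22 to 40 reads a library for miR-133b-3p and 10 to 14 for miR-1b-3p, counting error is larger than these distances. miR-1a-3p and miR-133a-3p were 0.35 apart, and miR-133a-3p and miR-122-5p were 0.89 apart. Nearest to miR-122-5p were miR-7a-5p (0.27), miR-7b-5p (0.30) and miR-221-5p (0.51). The distance is not scaled for range, so the wide range of miR-122-5p, with 20 reads in APP3, makes its distances large. miR-802-3p, with the same order of libraries, had too few reads to be compared.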

How the data were processed

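Small RNA of the cortex was sequenced in 4 libraries, 1 mouse each. The authors trimmed adapters, kept reads of miRNA length, matched them to miRBase with Bowtie and counted mature sequences and their variants with CLC Genomics Workbench. The deposited table gives raw counts per mature miRNA. It also gives values the authors named TPM, which have no length term and are RPM, the counts per 1000000 clean reads of the library. RPM in the text was computed anew from the counts, per 1000000 miRNA reads. The study's methods name GRCm38, whereas the submitters' processing notes name CASAVA 1.8 and mm9. No coordinate was taken from the deposited table.

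Genotypes were compared on counts with edgeR 4.0.16 (quasi-likelihood, TMM, filterByExpr), with DESeq2 1.42.0 as an alternative. Pairs of libraries were compared with Fisher's exact test, two-sided, in scipy 1.17.1. All p-values were adjusted by Benjamini and Hochberg over all miRNAs tested, or over the 60 ratio tests. A call needed an adjusted p under 0.05 and, for Fisher's test, a 1.5-fold change, with 0.5 reads added for log2 values and their SE. Profiles, ratios and marker lists were computed from the same counts. Wilson intervals cover counting error only, since PCR reads without molecular identifiers are not independent molecules. With 2 mice per genotype, exact permutation cannot reach 0.05 and was not used. The sibling pairs come from the study's methods. Deviations of siblings from their genotype's mean correlated with r = 0.235 over the 252 miRNAs whose mean reached 50 RPM, and the pairing was fitted as an alternative. The statistical scripts were tested on simulated data. The text names the 6 miRNAs, their other arms, the listed marker miRNAs and the 3 nearest profiles of each. The 6 miRNAs, the rule for the profiles and the marker lists were chosen with earlier results of these data known.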

Additional observations from a re-analysis of the deposited data

Results flagged for a closer look

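For 3 of the 6 miRNAs the AD mouse lay on opposite sides of its WT sibling in the 2 pairs. Whether the pairs differ was not tested. miR-133a-3p had a log2 fold change of 0.33 in group 1 (APP4 minus WT1) and -0.18 in group 2 (APP3 minus WT2). miR-1b-3p had 0.32 and -0.41, from 14 reads or fewer in each library. miR-133b-3p had -0.39 and 0.054, from 40 reads or fewer.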

How the results depend on the processing

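The number of miRNAs called between the genotypes in edgeR was 2 with a sibling replicate block, which changed the call of 0 of the 6 miRNAs (miR-122-5p had an adjusted p = 0.116 in edgeR with it). Leaving out 1 mouse at a time gave from 0 to 21 calls: 3 without WT1, 0 without WT2, 21 without APP3 and 5 without APP4. With 1 mouse left out, the log2 fold change of miR-122-5p ran from -1.95 to -0.86 and passed only without APP4, at -1.92. Over the other alternatives its adjusted p in edgeR or DESeq2 was between 0.116 and 0.880. The log2 fold change of miR-133a-3p ran from -0.23 to 0.13, positive without WT2, and was 0.059 without TMM. Those of miR-1a-3p and miR-133b-3p, with 1 mouse left out, ran from -0.67 to -0.24 and from -0.53 to -0.12. For miR-1b-3p it ran from -0.44 to 0.083, positive without WT2.

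Among miRNAs with at least 10 RPM in a library, Fisher's exact test called 53 between APP4 and WT1, 30 between APP3 and WT2, 40 between WT2 and WT1 and 40 between APP4 and APP3. None of the 6 was called there (0, 0 and 0 in the first 3 comparisons), since miR-122-5p is under 10 RPM and was left out by construction. A limit of 2-fold gave 50, 23, 38 and 38 calls. With at least 50 reads in every library, 1 ratio was tested, that of miR-1a-3p to miR-133a-3p, and 4 of 6 tests passed, with APP4 against APP3 gained. With TMM library sizes miR-206-3p turned to -0.18 between APP4 and WT1, and miR-133a-3p to -0.019 between APP4 and APP3, neither past the test. The other 114 values of the 6 miRNAs between libraries kept their direction and their call by FDR and 1.5-fold together. By FDR alone 2 of these crossed 0.05 in Fisher's exact test, miR-1a-3p between APP4 and WT1 with TMM library sizes (FDR 0.0406) and miR-133a-3p between APP4 and APP3 at 10 RPM or more (FDR 0.0493). For miR-1b-3p and miR-206-3p, 5 to 14 reads a library limit what can be seen.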
